A study of Mus musculus with 4 samples.

Results

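The CXCR3 and CXCR6 chemokine axis, which recruits T cells, was followed by gene symbol through every library. It comprises 3 ligands, Cxcl9, Cxcl10 and Cxcl16, and their 2 receptors, Cxcr3 and Cxcr6. These are 5 of the 32245 gene symbols measured in tumor and of the 31017 measured in bone marrow. The samples are CD45-positive cells, that is leukocytes, sorted from LLC tumors (LLC is the Lewis lung carcinoma line of mouse) and from bone marrow of tumor-free mice. The KO mice carried S100a8 fl/fl with one copy of Vav-Cre, a Cre driven in blood-forming cells, so that S100a8 is deleted across the hematopoietic system. The WT mice carried the same floxed S100a8 without Cre, so the floxed allele is shared by all groups. S100a8 encodes a calcium-binding protein that neutrophils hold in large amounts with its partner S100a9. There are 4 groups: KO tumor, WT tumor, KO bone marrow and WT bone marrow, each 1 droplet library pooled from 3 mice. Sex, age and treatment are not given in the labels, apart from the statement that there was no treatment.

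CXCL9 and CXCL10 are ligands of the receptor CXCR3 and are known as chemokines that interferon induces. CXCR3 is carried by activated and memory T cells and by plasmacytoid dendritic cells and is known to guide T cells into inflamed tissue and tumors. CXCL16 is made as a membrane protein that can be shed from the cell surface, and its receptor CXCR6 marks tissue-resident and effector T cells. In tumors, dendritic cells that have matured and carry CCR7 are a known source of CXCL16, and macrophages and dendritic cells are known sources of CXCL9.

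In the GENCODE M21 annotation of GRCm38, all 5 are protein-coding genes. Cxcl9 (ENSMUSG00000029417) lies at chr5:92321347-92328079 and Cxcl10 (ENSMUSG00000034855) at chr5:92346638-92348889, both on the minus strand and 18558 bases apart. Cxcl16 (ENSMUSG00000018920) lies at chr11:70453983-70459984 on the minus strand. Cxcr3 (ENSMUSG00000050232) lies at chrX:101731535-101734269 on the minus strand, and Cxcr6 (ENSMUSG00000048521) at chr9:123806475-123811760 on the plus strand.

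The promoters of Cxcl9 and Cxcl10 are shown because these neighbors bind the same receptor and had different KO over WT ratios in the tumor. Each window, from RefSeq on GRCm38.p6, holds 250 bases before and 50 after the start of the gene, read 5′ to 3′ on the minus strand, at chr5:92328030-92328329 for Cxcl9 and chr5:92348840-92349139 for Cxcl10. Capitals mark matches, on either strand, to the letters of an interferon-stimulated response element (ISRE; GAAA, any 2 bases, GAAA), a gamma-activated sequence (GAS; TTC, any 3 bases, GAA) or an NF-kB site (GGG, any 2 bases, TTCC).
Cxcl9: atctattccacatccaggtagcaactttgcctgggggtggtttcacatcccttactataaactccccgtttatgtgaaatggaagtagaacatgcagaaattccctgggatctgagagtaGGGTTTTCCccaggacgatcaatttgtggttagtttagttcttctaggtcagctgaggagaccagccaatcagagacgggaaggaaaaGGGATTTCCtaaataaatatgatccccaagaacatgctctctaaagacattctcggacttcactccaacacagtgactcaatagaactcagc
Cxcl10: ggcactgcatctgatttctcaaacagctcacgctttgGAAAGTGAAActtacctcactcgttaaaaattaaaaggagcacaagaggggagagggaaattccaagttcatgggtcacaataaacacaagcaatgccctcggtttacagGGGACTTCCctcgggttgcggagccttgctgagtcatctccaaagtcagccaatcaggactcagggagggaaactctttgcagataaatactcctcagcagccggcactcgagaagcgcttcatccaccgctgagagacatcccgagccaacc

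The Cxcl9 window held the NF-kB letters at 2 places, with first bases at -130 and -42 from the start. The Cxcl10 window held them once, at -103, and held the ISRE letters once, at -213. Neither window held the GAS letters, and the Cxcl9 window did not hold the ISRE letters. Each search took only the exact letters given and only these 300 bases, so sites with other letters or farther away are not seen. Of 32851 promoter windows in the same RefSeq table, 3.44% held the ISRE, 8.30% the GAS and 5.82% the NF-kB letters. The matched motifs do not overlap each other in either window.

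The deposited matrices held 11836 barcodes and 111214201 UMIs for KO tumor, 12027 and 102548178 for WT tumor, 11070 and 51776813 for KO bone marrow, and 8126 and 32906493 for WT bone marrow. Filtering kept 10429 KO and 10460 WT tumor cells, whose median depth was 7947 UMIs in KO and 6387.5 in WT. Levels are given as CPM, the share of a gene in all UMIs of a library or class, scaled as counts per 1e6. S100a8 stood at 0.902 CPM in KO tumor against 133 in WT tumor, and at 0.131 CPM in KO bone marrow against 68345 in WT bone marrow. Any pair of libraries shared at most 46 barcodes, or 0.416% of one of them. Not leukocyte-like cells made up 1.41% of KO and 0.746% of WT tumor cells, despite the CD45 sort. With 1 library per group there is no replicate and no test of genotype. Every interval below is a 95% interval for counting error alone, and mouse, sort and library cannot be told apart from genotype.

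In the whole tumor libraries, transcripts of both receptors and of Cxcl9 were scarcer in KO, whereas Cxcl10 was more frequent and Cxcl16 close to WT. Cxcr3 stood at 12.7 CPM in KO tumor (1185 UMIs) and 53.1 CPM in WT tumor (4436 UMIs), a KO over WT ratio of 0.240 (0.225 to 0.256). Cxcr6 stood at 45.1 CPM in KO against 125 CPM in WT, a ratio of 0.361 (0.348 to 0.374). Both receptors were thus lower in the KO library by more than 2-fold. Cxcl9 stood at 66.5 CPM in KO against 128 CPM in WT, a ratio of 0.521 (0.505 to 0.538). Cxcl10 stood at 358 CPM in KO against 239 CPM in WT, a ratio of 1.499 (1.47 to 1.53), and Cxcl16 at 128 CPM in KO against 115 CPM in WT, a ratio of 1.11 (1.08 to 1.14). Of the 5 genes, 3, namely Cxcl9, Cxcr3 and Cxcr6, were lower in KO by at least 1.5-fold. Over all 13791 genes with at least 50 UMIs in both libraries together, 30.1% were lower in KO by at least 1.5-fold and 13.8% higher. Together these are 43.9%, so a difference past 1.5-fold is common in the whole libraries.

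The cell makeup of the 2 tumor libraries differed. Monocyte- or macrophage-like cells were 47.9% of KO and 22.2% of WT cells, and neutrophil-like cells 29.7% of KO and 2.07% of WT cells. CD4 T-like cells were 3.88% of KO and 13.1% of WT cells, CD8 T-like cells 5.70% and 8.12%, and regulatory T-like cells 1.41% and 5.71%. NK-like cells, natural killer lymphocytes, were 2.13% of KO and 15.9% of WT cells, and gamma-delta T-like cells 1.08% and 3.12%. cDC2-like cells, a class of conventional dendritic cells, were 1.79% of KO and 9.24% of WT cells, and migratory DC-like cells, mature dendritic cells that carry Ccr7, 0.873% and 3.07%. In whole libraries a lower level of a gene therefore cannot be told apart from a lower share of the cells that carry it.

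To separate these, the level of each gene in KO was recomputed as if its classes had the UMI shares of the WT library. For Cxcr6 the KO over WT ratio was then 0.870, against 0.361 in the libraries as they are. For Cxcr3 it was 0.631, against 0.240. With class shares held, both receptors lay nearer to WT, Cxcr6 within 1.5-fold and Cxcr3 still past it. For Cxcl9 the ratio stayed low, at 0.485 against 0.521. For Cxcl10 it was 1.17 against 1.499, and for Cxcl16 1.14 against 1.11. With the shares of clusters in place of classes, the ratios were 0.640 for Cxcl9, 1.87 for Cxcl10, 1.15 for Cxcl16, 0.794 for Cxcr3 and 0.788 for Cxcr6. The side of 1 on which each gene lay was the same under both ways of holding the shares. Both ways include cluster 21, a mixed cluster described below, where Cxcl9 stood at 359 CPM in WT against 8.90 CPM in KO. The low Cxcl9 ratios with shares held thus rest in part on this cluster of 57 KO and 441 WT cells, with 10 Cxcl9 UMIs in KO. The Cxcl9 ratio with shares held but without cluster 21 was not computed.

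**Figure D1:**
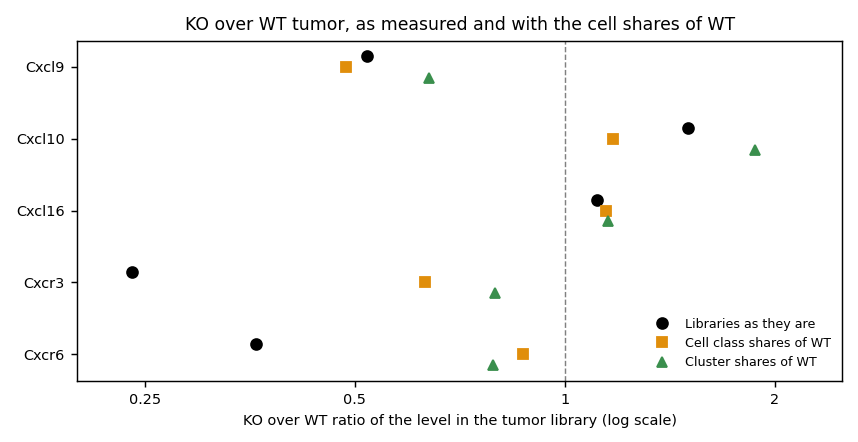
KO over WT ratio of the level of each gene in the tumor libraries, on a log axis. Circles are the libraries as they are, squares KO with the class shares of WT, and triangles KO with the cluster shares of WT. For Cxcr3 the circle lies at 0.240 and the square at 0.631, and for Cxcl9 they lie at 0.521 and 0.485.

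**Figure D2:**
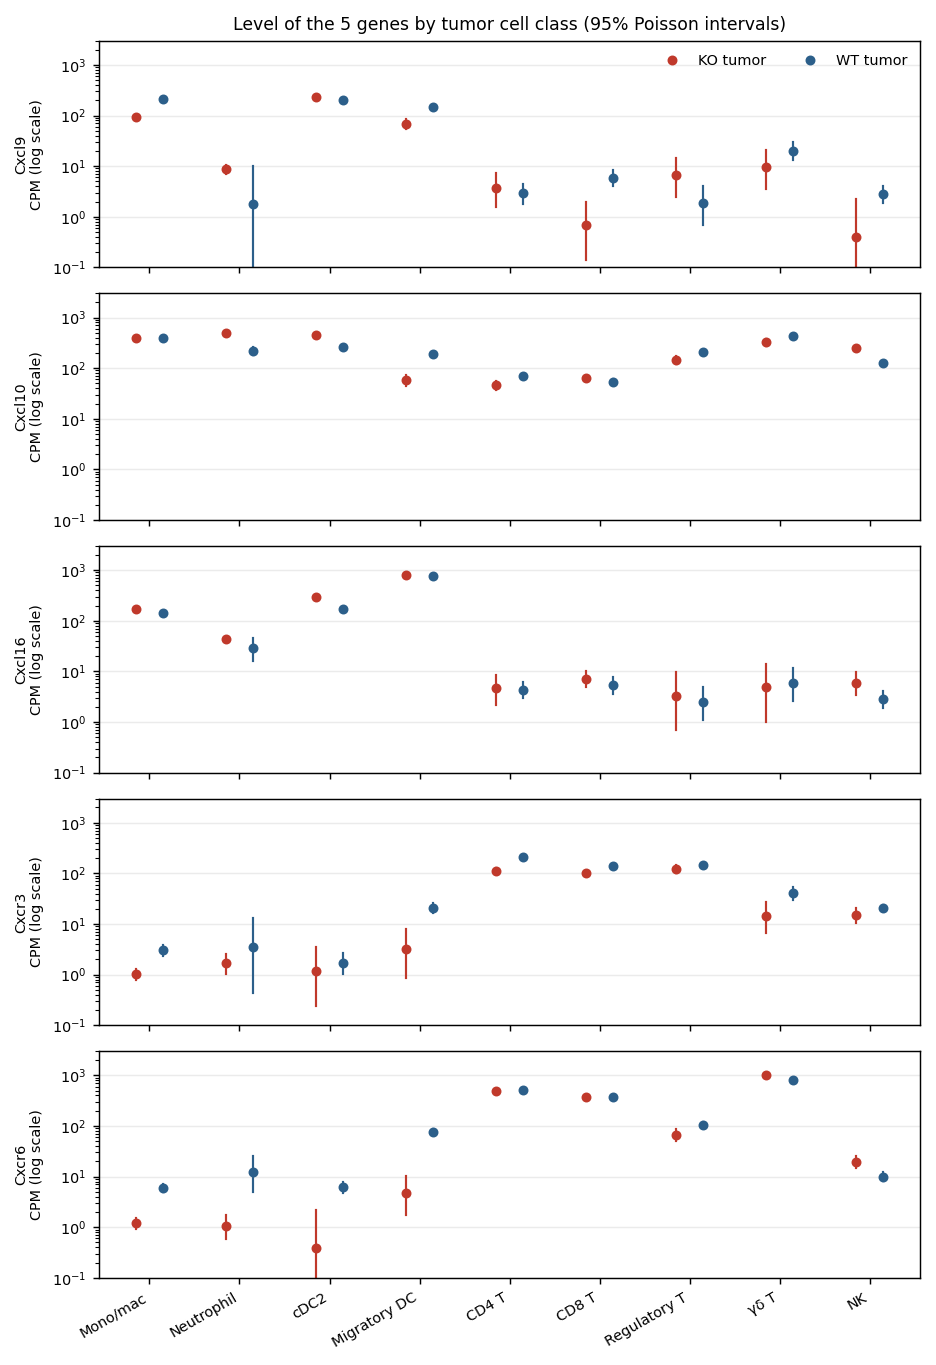
Level of each gene in 9 tumor cell classes, in CPM of the class on a log axis, with KO on the left and WT on the right of each pair. Points are sums over 1 library and bars are Poisson intervals (drawn down to 0.1 CPM). The ligands Cxcl9 and Cxcl16 lie high in myeloid classes, the receptors in T-like classes, and Cxcl10 in both.

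Cxcl9 was mainly a transcript of monocytes, macrophages and dendritic cells in both genotypes. In monocyte- or macrophage-like cells it stood at 95.6 CPM in KO (93.1 to 98.2) and 212 CPM in WT (205 to 218), a ratio of 0.452 (0.434 to 0.471). In cDC2-like cells it stood at 228 CPM in KO against 198 CPM in WT, a ratio of 1.15 (1.05 to 1.26). The cDC2-like ratio depended on how cells were classed, at 0.936 with Leiden resolution 1.6, 0.926 with cells gated on marker UMIs, 1.03 with resolution 0.6 and 1.01 with doublets kept, so no direction is read from it. By level, the order in KO was cDC2-like, monocyte- or macrophage-like, then migratory DC-like cells at 68.2 CPM (54.6 to 84.3), with no overlap of intervals. In WT, monocyte- or macrophage-like and cDC2-like cells overlapped, followed by cDC1-like cells at 160 CPM and migratory DC-like cells at 144 CPM, which overlapped with each other. Not leukocyte-like cells came next in WT, at 109 CPM (95.5 to 123), against 0.981 CPM in KO. Of their WT UMIs, 192 lay in the 8 cells of cluster 20, led by collagen genes. cDC1-like cells, the cross-presenting dendritic cells, numbered 48 in KO, under the minimum of 50, and no ratio is given for them.

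A small share of the cells held much of the Cxcl9. It was found in 6.35% of KO and 13.4% of WT monocyte- or macrophage-like cells, and, with every cell thinned to 2000 UMIs, in 3.89% of KO (3.36 to 4.47) and 8.46% of WT cells (7.32 to 9.71). The 1% of these cells with most Cxcl9 held 66.1% of its UMIs in KO and 44.2% in WT, and single cells reached 276 UMIs in KO and 213 in WT. In migratory DC-like cells Cxcl9 was lower in KO, at 68.2 against 144 CPM in WT, with a ratio of 0.473 (0.372 to 0.596), but these are 91 KO and 321 WT cells. With doublets kept the ratio was 1.49, so its direction depended on the doublet filter. In T-like and NK-like classes Cxcl9 did not exceed 9.77 CPM in KO against 20.2 CPM in WT, which is at the low end of the range over classes and was read as background.

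Cells were also described by cluster, since the monocyte- or macrophage-like class was made of different clusters in the 2 libraries. KO cells lay mainly in cluster 3, led by Cxcl3 and Il1b (1544 KO and 31 WT cells), cluster 1, led by Arg1 and Pf4 (1180 KO and 176 WT), and cluster 2, led by Lyz2 and Vcan (1175 KO and 1087 WT). WT cells lay mainly in cluster 2 and in cluster 4, which carried Rsad2, an interferon-induced gene, among its leading genes (272 KO and 635 WT). Cluster 10, led by C1qa, C1qb and C1qc, the complement genes of resident macrophages, held 298 KO and 360 WT cells.

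Among clusters 1, 2, 4 and 10, Cxcl9 differed most in cluster 10, where it stood at 155 CPM in KO against 481 CPM in WT, a ratio of 0.322. It was found in 9.40% of KO and 24.4% of WT cells of that cluster. In cluster 2 it stood at 123 CPM in KO against 160 CPM in WT. In cluster 4 it was higher in KO, at 312 CPM against 233 CPM in WT, a ratio of 1.34 (1.22 to 1.46). In cluster 1 it stood at 86.8 CPM in KO against 74.1 CPM in WT, and the interval of the ratio, 0.964 to 1.44, held 1. The 1% of cluster 1 cells with most Cxcl9 held 78.8% of its UMIs in KO and 82.0% in WT. Cluster 3, which is nearly all KO, stood at 48.5 CPM in KO.

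Part of the WT Cxcl9 lay in cells that carry markers of more than one lineage. Cluster 21 (57 KO and 441 WT cells) was led by the cDC2 genes Cd209a and Mgl2 but scored high for T cell markers as well, had a high median depth of 16225 UMIs, and was left unnamed as mixed. It held 25.3% of the Cxcl9 UMIs of WT tumor and 0.161% of those of KO tumor, at 359 CPM in WT against 8.90 CPM in KO. Without this cluster the whole-library ratio of Cxcl9 was 0.641 (0.620 to 0.663). Doublets were removed by a different threshold in the 2 tumor libraries, and the part of doublets in this cluster was not tested.

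Cxcl10 was found in both myeloid and lymphoid classes. In monocyte- or macrophage-like cells it stood at 396 CPM in KO (390 to 401) and 394 CPM in WT (386 to 403), a ratio of 1.00 (0.978 to 1.03). In neutrophil-like cells it stood at 495 CPM in KO against 218 CPM in WT, a ratio of 2.27 (1.90 to 2.74). Since neutrophil-like cells were also far more frequent, they held 19.6% of the Cxcl10 UMIs of KO tumor and 0.611% of those of WT tumor. In cDC2-like cells Cxcl10 stood at 446 CPM in KO against 257 CPM in WT, a ratio of 1.73 (1.62 to 1.86). In migratory DC-like cells it was lower, at 57.9 CPM in KO against 191 CPM in WT, a ratio of 0.303 (0.234 to 0.386). That ratio was 1.41 with doublets kept, and one WT cell alone held 319 of the 672 UMIs.

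Lymphocytes carried Cxcl10 as well. Gamma-delta T-like cells stood at 322 CPM in KO against 434 CPM in WT, regulatory T-like cells at 144 and 208 CPM, and NK-like cells at 256 and 129 CPM. The KO over WT ratios were 0.743 (0.629 to 0.875), 0.694 (0.571 to 0.838) and 1.99 (1.80 to 2.19). In NK-like cells 1 KO cell held 233 of the 638 KO UMIs. That cell was in cluster L18, which also held 35 WT cells with 414 UMIs. Without all of L18 the ratio was 1.84, which is not the ratio without that cell alone. A KO cell of cluster L8 held a further 100 UMIs, so the NK-like ratio rests in large part on a few KO cells. CD8 T-like cells stood at 63.2 CPM in KO against 53.8 CPM in WT, and CD4 T-like cells at 46.1 and 71.3 CPM. The CD4 T-like ratio of 0.646 was 1.53 when cells were gated on marker UMIs in place of clusters, so its direction depended on how the class was drawn. For comparison, WT plasmacytoid DC-like cells, which had the lowest level, stood at 7.57 CPM.

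By level, the order of Cxcl10 in KO was neutrophil-like, cDC2-like, monocyte- or macrophage-like, gamma-delta T-like and NK-like, with no overlap between neighbors. In WT the order began with gamma-delta T-like and monocyte- or macrophage-like cells, whose intervals overlapped. cDC2-like cells followed at 257 CPM (247 to 267) and neutrophil-like cells at 218 CPM (181 to 260).

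Among clusters that held 50 or more KO and 50 or more WT cells, the highest Cxcl10 was in cluster 4 and in cluster L1, and in both it was higher in KO. In cluster 4 it stood at 3554 CPM in KO against 1004 CPM in WT, a ratio of 3.54 (3.42 to 3.66), and was found in 54.0% of KO and 36.2% of WT cells. In cluster L1, T cells led by Ifit3, Rsad2 and Ifit1, it stood at 3421 CPM in KO against 1517 CPM in WT, a ratio of 2.26, and was found in 80.9% of KO and 57.5% of WT cells. Cxcl10 is itself among the 10 leading genes of L1, although it was kept out of the clustering. In the other large myeloid clusters the direction varied. Cluster 10 stood at 47.5 CPM in KO against 156 CPM in WT, cluster 2 at 106 and 194 CPM, and cluster 1 at 100.5 and 101 CPM. Without clusters 4 and L1, Cxcl10 in monocyte- or macrophage-like cells had a ratio of 1.26 (1.204 to 1.31), although clusters 1, 2 and 10 were not higher in KO. The cells left include clusters 3 and 0, which are mostly KO and stood at 404 and 343 CPM in KO. The class ratio thus mixes the cluster makeup with differences within clusters, which ran in both directions. Among neutrophil-like cells, cluster 13 stood at 687 CPM in KO against 111 CPM in WT (1854 KO and 74 WT cells), and cluster 14 at 199.8 CPM in KO against 272 CPM in WT (1243 KO and 143 WT cells).

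**Figure D3:**
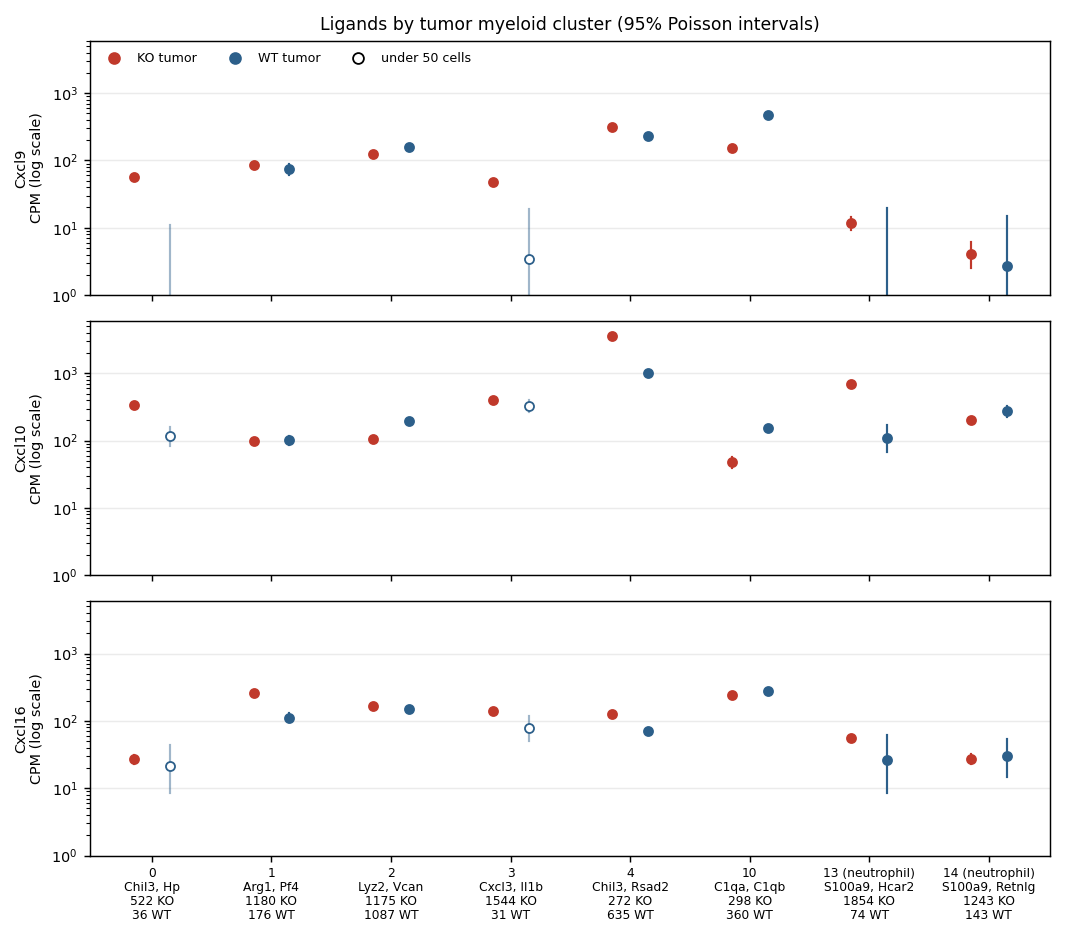
Level of the 3 ligands in 6 monocyte- or macrophage-like and 2 neutrophil-like clusters of tumor, in CPM on a log axis, KO left and WT right, with Poisson intervals and the number of cells below. Open points have under 50 cells, and a bar without a point has a level under 1 CPM. Cxcl9 in cluster 10 is 155 CPM in KO against 481 CPM in WT, and Cxcl10 in cluster 4 is 3554 and 1004 CPM.

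Cxcl16 was above all a transcript of migratory DC-like cells, in both genotypes alike. It stood there at 793 CPM in KO (745 to 844) and 768 CPM in WT (739 to 797), a ratio of 1.03 (0.960 to 1.11), and 96.7% of KO and 91.0% of WT cells held it. These cells were scarcer in KO and held 8.37% of the Cxcl16 UMIs of KO tumor, against 28.0% in WT tumor. Monocyte- or macrophage-like cells held 77.1% in KO and 29.7% in WT, at 167 CPM in KO against 141 CPM in WT, a ratio of 1.19 (1.14 to 1.24). The source of Cxcl16 thus differed between the libraries while its total was close.

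In cDC2-like cells Cxcl16 stood at 292 CPM in KO against 168 CPM in WT, a ratio of 1.74 (1.598 to 1.90), and after thinning 37.3% of KO (30.3 to 44.7) and 21.7% of WT cells (19.1 to 24.4) held it. In cluster 1 it stood at 259 CPM in KO against 111 CPM in WT, a ratio of 2.34, and in cluster 10 at 239 and 274 CPM. Neutrophil-like cells stood at 44.2 CPM in KO against 28.6 CPM in WT (16 WT UMIs). The order migratory DC-like, cDC2-like, monocyte- or macrophage-like and neutrophil-like was the same in both libraries, and in WT cDC1-like cells at 135 CPM overlapped with monocyte- or macrophage-like cells. The named T-like and NK-like classes stood at 7.23 CPM or less in both libraries.

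Counted against the background, the ligands past 1.5-fold were 1 of 3 in monocyte- or macrophage-like cells, where 26.4% of all measured genes were past 1.5-fold, and 2 of 3 in cDC2-like cells, where 18.3% were. They were 2 of 3 in migratory DC-like cells, where 20.7% were, and all 3 in neutrophil-like cells, where 49.3% were. In neutrophil-like cells the interval of Cxcl9, with 114 KO UMIs and 1 WT UMI, ran from 0.849 to 192, and that of Cxcl16 from 0.945 to 2.73. With doublets kept the ratio of Cxcl9 there was 0.845 and that of Cxcl16 1.46. In cDC2-like cells gated on marker UMIs none of the 3 was past 1.5-fold, with Cxcl10 at 1.22 and Cxcl16 at 1.28.

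**Figure D4:**
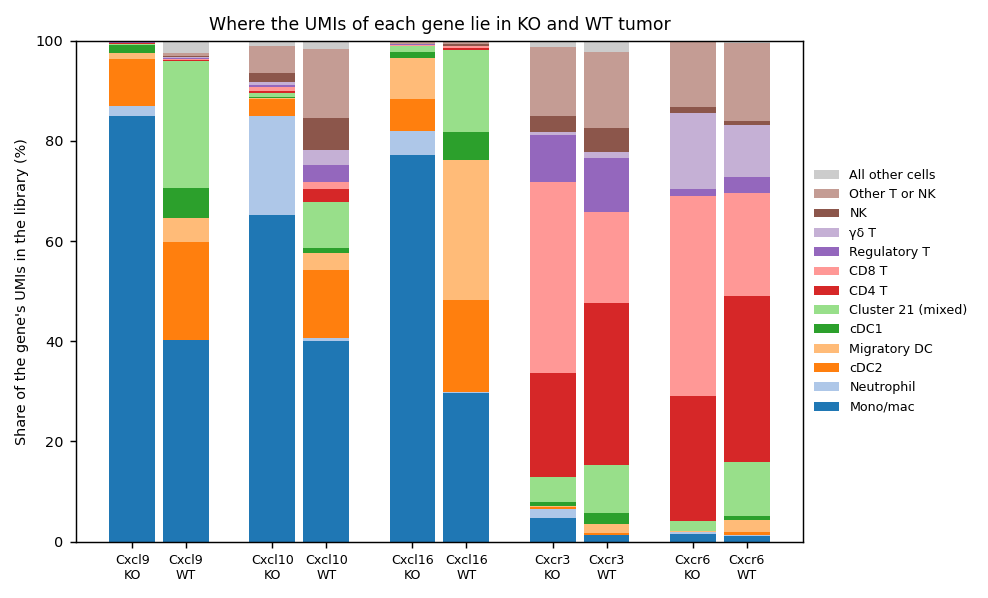
Share of the UMIs of each gene that lies in each cell class of the KO and WT tumor library, in percent, with bars stacked to 100%. Monocyte- or macrophage-like cells hold 85.04% of Cxcl9 UMIs in KO and 40.3% in WT, and CD8 T-like cells hold 38.2% of Cxcr3 UMIs in KO and 18.3% in WT.

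Among thinned monocyte- or macrophage-like cells, 78 of 4858 in KO and 69 of 2175 in WT held both CXCR3 ligands. Cxcl10 was more frequent in the cells with Cxcl9 than in those without it. With all cells thinned to 2000 UMIs, 41.3% of KO and 37.5% of WT monocyte- or macrophage-like cells with Cxcl9 also held Cxcl10. Among the cells without Cxcl9 the shares were 10.6% in KO and 13.1% in WT. Cxcl16 was found in 43.4% of KO and 40.2% of WT cells with Cxcl9, against 22.2% of KO and 17.5% of WT cells without it. In the reverse direction, 13.6% of KO and 20.97% of WT cells with Cxcl10 held Cxcl9.

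Cxcr3 was a transcript of T-like cells. In CD4 T-like cells it stood at 113 CPM in KO (99.1 to 128) and 209 CPM in WT (198 to 220), a ratio of 0.540 (0.470 to 0.619). In CD8 T-like cells it stood at 102 CPM in KO (93.1 to 112) and 141 CPM in WT (131 to 151), a ratio of 0.726 (0.646 to 0.815). In regulatory T-like cells it stood at 121 CPM in KO against 149 CPM in WT, a ratio of 0.812 (0.654 to 1.00). CD4 and CD8 T-like cells were thus lower in KO beyond counting error, CD4 T-like cells past 1.5-fold, whereas the interval of regulatory T-like cells reached 1 and their ratio was 1.18 with cells thinned. After thinning, 18.3% of KO (14.6 to 22.5) and 32.2% of WT CD4 T-like cells (29.7 to 34.8) held Cxcr3, and 18.9% of KO (15.8 to 22.3) and 25.1% of WT CD8 T-like cells (22.2 to 28.2). Before thinning these shares were 35.1% in KO and 53.9% in WT for CD4, and 45.1% in KO and 50.2% in WT for CD8.

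Lower levels of Cxcr3 were found in gamma-delta T-like cells, at 14.7 CPM in KO against 40.4 CPM in WT (9 and 54 UMIs), a ratio of 0.363 (0.158 to 0.741), and in NK-like cells, at 14.8 CPM in KO against 21.2 CPM in WT, a ratio of 0.700 (0.480 to 0.996). Plasmacytoid DC-like cells stood at 49.2 CPM in KO against 63.9 CPM in WT, with 26 KO cells and no ratio. Monocyte- or macrophage-like and neutrophil-like cells, which are not known for this receptor, stood at 1.02 and 1.66 CPM in KO and at 3.00 and 3.57 CPM in WT. In monocyte- or macrophage-like cells 0.821% of KO and 1.76% of WT cells held a Cxcr3 UMI, at median depths of 10317 and 8020 UMIs. In KO the intervals of regulatory, CD4 and CD8 T-like cells overlapped, whereas in WT CD4 T-like cells stood above regulatory and CD8 T-like cells, which overlapped with each other.

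Cxcr6 was close to WT in CD4 and CD8 T-like cells and differed in the other T-like classes. CD4 T-like cells stood at 485 CPM in KO (456 to 515) and 502 CPM in WT (485 to 519), a ratio of 0.965 (0.900 to 1.03), and CD8 T-like cells at 377 CPM in KO (359 to 396) and 373 CPM in WT (357 to 389), a ratio of 1.01 (0.948 to 1.08). Gamma-delta T-like cells had the highest level in both libraries, 1035 CPM in KO against 804 CPM in WT, a ratio of 1.29 (1.17 to 1.42), and 87.6% of KO and 84.7% of WT cells held it. Regulatory T-like cells were lower in KO, at 67.2 CPM against 105 CPM in WT, a ratio of 0.638 (0.478 to 0.841), which was 0.879 as a mean over cells. NK-like cells stood at 19.6 CPM in KO against 10.0 CPM in WT, a ratio of 1.96 (1.36 to 2.78) that rests on 49 and 100 UMIs. The order gamma-delta, CD4, CD8 and regulatory T-like was the same in both libraries with no overlap of intervals.

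In CD4 T-like cells 1 of the 2 receptors was past 1.5-fold, against 17.3% of all measured genes, and in CD8 T-like cells neither was, against 12.4%. In regulatory T-like cells Cxcr6 was, against 13.5%, in gamma-delta T-like cells Cxcr3, against 17.7%, and in NK-like cells Cxcr6, against 15.3%. In migratory DC-like cells Cxcr6 stood at 4.76 CPM in KO against 75.8 CPM in WT. The summed level of 7 T cell markers in that class was 52.4 CPM in KO against 870.1 CPM in WT, none of the 7 being at 0, and its part in the Cxcr6 UMIs was not tested.

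The T-like classes, too, were made of different clusters in the 2 libraries. KO CD4 T-like cells lay mainly in cluster L11, led by Il17a (364 KO and 312 WT cells), and WT cells mainly in L13, with Cd4 and Cd40lg among its leading genes (41 KO and 1060 WT). KO CD8 T-like cells lay mainly in L7 (400 KO and 17 WT) and WT cells mainly in L10, with Gzmk among its leading genes (113 KO and 711 WT). Another CD8 T-like cluster, L5, was led by the granzyme genes Gzmf, Gzme and Gzmd (81 KO and 121 WT). These granzyme genes are close copies whose UMIs the counting could have split.

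In L10 and L11 the ratio of Cxcr3 was nearer to 1 than in their classes, and their ratios of Cxcr6 lay on opposite sides of 1. L11 is CD4 T-like and L10 CD8 T-like, so opposite directions within a class are not shown. In L10 Cxcr3 stood at 162 CPM in KO against 175 CPM in WT, and in L11 at 102 CPM in KO against 152 CPM in WT. In L7, nearly all KO, Cxcr3 stood at 122 CPM in KO, and in L13, nearly all WT, at 221 CPM in WT. Cxcr6 in L11 stood at 483 CPM in KO against 199 CPM in WT, a ratio of 2.42, and 59.1% of KO and 29.2% of WT cells held it. In L10 it was the other way round, with 185 CPM in KO against 357 CPM in WT, a ratio of 0.518. The main KO clusters and the main WT clusters each had high Cxcr6, with 417 CPM in KO cells of L7 and 566 CPM in WT cells of L13.

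Cluster L5 carried one receptor almost without the other. Cxcr6 stood there at 394 CPM in KO against 434 CPM in WT and was found in 84.0% of KO and 81.8% of WT cells. Cxcr3 stood at 5.09 CPM in KO against 8.42 CPM in WT. In gamma-delta T-like cells (cluster L6) Cxcr6 was likewise high beside 14.7 CPM of Cxcr3 in KO and 40.4 CPM in WT. Regulatory T-like cells showed the reverse, with Cxcr3 found in 40.8% of KO and 40.0% of WT cells and Cxcr6 in 17.7% and 18.1%.

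**Figure D5:**
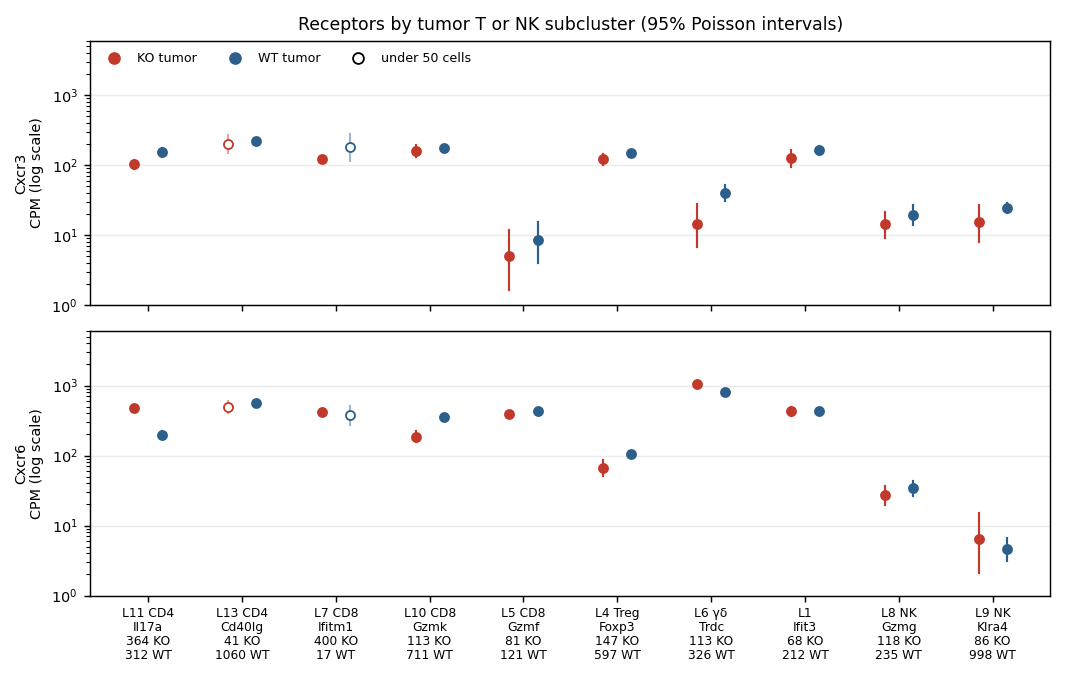
Level of Cxcr3 and Cxcr6 in 10 T-like or NK-like clusters of tumor, in CPM on a log axis, KO left and WT right, with Poisson intervals and cell numbers below. Open points have under 50 cells. In L5 Cxcr6 is 394 CPM in KO against 434 CPM in WT while Cxcr3 is 5.09 and 8.42 CPM, and in L11 Cxcr6 is 483 and 199 CPM.

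The receptors were also counted together in single cells. After thinning, 34.7% of KO and 52.2% of WT CD4 T-like cells with Cxcr3 also held Cxcr6, against 46.3% of KO and 46.6% of WT cells without Cxcr3. In CD8 T-like cells the shares were 42.3% in KO and 50% in WT with Cxcr3, and 45.1% and 43.0% without it. The KO CD4 share rests on 25 of 72 cells.

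Over 11 tumor classes, with KO and WT as 2 points each (22 points), genes were ranked by Pearson's r of log2(CPM + 1) with each member. The points share libraries and depth, so the values describe likeness alone. Cxcl9 was closest to Ifi30 (r = 0.88), a lysosomal reductase of antigen processing, Ly86 (0.88) and Cyp27a1 (0.87), a sterol hydroxylase. Cxcl16 was closest to Gapt (0.97), Ctsh (0.96), a lysosomal cathepsin, and Cds1 (0.95). Cxcl10 had no close partner, the nearest being Cgas (0.71), a sensor of DNA, Bambi (0.69) and Opa3 (0.68). Cxcr3 was closest to Slain1, Crbn and Cd28 (0.97 each), Cd28 being a co-stimulatory receptor of T cells. Cxcr6 was closest to Cd3g (0.97), Ehd3 (0.96) and Lat (0.96), Cd3g and Lat being parts of T cell receptor signaling. Among the members, Cxcl9 and Cxcl16 had r = 0.77, Cxcr3 and Cxcr6 0.86, and Cxcl9 and Cxcl10 0.32.

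Genes known to induce the ligands were counted from a list of 12 on interferon gamma, its receptor and signaling, NF-kB and tumor necrosis factor. In monocyte- or macrophage-like cells 2 of 12 were higher in KO by at least 1.5-fold and 4 lower, with a median log2 ratio of -0.24, beside -0.23 over all genes measured there, of which 6.71% were higher and 19.7% lower. Stat2, a transcription factor of interferon signaling, stood at 19.3 CPM in KO against 43.4 CPM in WT (ratio 0.445). Tnf stood at 234 CPM in KO against 141 CPM in WT (1.65), and Jak2 at 79.3 and 49.5 CPM (1.601). In cluster 10, where Cxcl9 was lower in KO, Irf1 stood at 74.4 CPM in KO against 136 CPM in WT, and Nfkb1 at 159 CPM in KO against 93.9 CPM in WT. In cluster 4, where Cxcl10 was higher in KO, Tnf was higher too, at 199 CPM in KO against 107 CPM in WT. In neutrophil-like cells 3 of 11 measured were higher and 3 lower, a share near the 49.3% of all genes past 1.5-fold there, with Irf1 at 313 CPM in KO against 191 CPM in WT.

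Ifng, the main inducer of Cxcl9, stood at 20.96 CPM in KO tumor and 70.5 CPM in WT tumor. In CD4 T-like cells it stood at 38.2 CPM in KO against 172 CPM in WT (ratio 0.222), and in NK-like cells at 77.7 and 176 CPM (0.441). In CD8 T-like cells it was higher in KO, at 204 CPM against 144 CPM in WT (1.42). Ifng was thus lower in KO in CD4 T-like and NK-like cells but not in CD8 T-like cells. These classes differed in cluster makeup between the libraries, and the part of that in the Ifng ratios was not tested. In CD8 T-like cells 1 of the 12 induction genes was past 1.5-fold, Ifngr2 on 53 UMIs in all, and in regulatory T-like cells none was.

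Of the genes that shed or cut the ligands, Adam10, a protease that sheds CXCL16, stood at 54.0 CPM in KO against 46.6 CPM in WT monocyte- or macrophage-like cells, and Adam17 at 96.6 and 93.1 CPM. Dpp4, which cleaves CXCR3 ligands, stood at 3.99 and 13.9 CPM there (ratio 0.287), and was the 1 of 3 past 1.5-fold.

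Among 11 other lymphocyte attractants, 6 could be measured in monocyte- or macrophage-like cells, of which 2 were higher in KO and 3 lower, beside 6.71% higher and 19.7% lower over all genes there. Ccl3 stood at 1024 CPM in KO against 220 CPM in WT (ratio 4.66) and Ccl4 at 1216 and 496 CPM (2.45), whereas Ccl5 stood at 91.4 and 214 CPM (0.427). Ccl3, Ccl4 and Ccl5 encode inflammatory CC chemokines. In cDC2-like cells Ccl22, a ligand of CCR4, stood at 183 CPM in KO against 57.6 CPM in WT (3.17) and Ccl17, another, at 315 and 164 CPM (1.92), beside a median log2 ratio of 0.94 over the 5 measured. In NK-like cells 3 of 4 were lower, beside 9.69% of all genes, among them Ccl5 at 2546 CPM in KO against 5593 CPM in WT. The NK-like class differed in cluster makeup between the libraries, and the part of that in these ratios was not tested.

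Among 12 other homing receptors, 9 could be measured in CD4 T-like cells, where 5 were higher in KO and 2 lower, with a median log2 ratio of 0.90 beside -0.09 over all genes, of which 6.91% were higher and 10.4% lower. Cxcr4, the CXCL12 receptor, stood at 142 CPM in KO against 62.2 CPM in WT (ratio 2.28) and S1pr1, which guides exit from tissue, at 205 and 110 CPM (1.86). Ccr7, which guides cells to lymph nodes, stood at 139 and 65.8 CPM (2.11). In CD8 T-like cells 3 of 9 were higher and none lower, beside 6.75% and 5.63% over all genes, Cxcr4 at 72.0 CPM in KO against 42.9 CPM in WT among them. So the lower Cxcr3 of KO CD4 T-like cells stood beside higher levels of 5 other homing receptors and lower levels of 2, among them Itga4, an integrin chain. KO and WT CD4 T-like cells lay mainly in different clusters, L11 and L13, and CD8 T-like cells in L7 and L10. The part of this makeup in the ratios of the homing receptors was not tested.

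Of genes known to control the receptors, none of the 6 measured in CD4 T-like cells was past 1.5-fold. Tbx21, the transcription factor T-bet that drives Cxcr3, stood there at 17.0 CPM in KO against 19.8 CPM in WT. In CD8 T-like cells 2 of 7 were higher and 1 lower, namely Prdm1 and Bhlhe40, factors of resident T cells (24.6 against 14.2 CPM in WT, and 492 against 317 CPM in WT), and Eomes (24.2 CPM in KO against 39.7 CPM in WT). Of the signaling genes below the receptors, Gnai2, the G protein subunit they couple to, stood at 630 CPM in KO against 699 CPM in WT CD4 T-like cells. Rgs2, which damps G protein signaling, stood there at 544 and 236 CPM (ratio 2.31).

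In tumor-free bone marrow the ligands had few UMIs and the receptors lay in T- or NK-like and plasmacytoid DC-like cells. Cxcr3 stood at 123 CPM in KO (104 to 144) and 114 CPM in WT T- or NK-like cells (91.9 to 139), a ratio of 1.08 (0.832 to 1.42), and at 47.1 and 55.5 CPM in plasmacytoid DC-like cells. Cxcr6 stood at 203 CPM in KO against 148 CPM in WT T- or NK-like cells, a ratio of 1.38 (1.10 to 1.72). In the whole bone marrow libraries Cxcr3 had a ratio of 0.984 (0.793 to 1.22) and Cxcr6 one of 1.30 (1.04 to 1.62). Cxcl9 had 43 UMIs in KO and 12 in WT, at 0.940 and 0.400 CPM, Cxcl10 had 88 and 68, and Cxcl16 31 and 14. Of the 43 KO Cxcl9 UMIs, 34 lay in monocyte- or macrophage-like cells, at 6.50 CPM against 1.12 CPM in WT. At this depth Cxcl10, with a ratio of 0.849 (0.611 to 1.18), and Cxcl16, with 1.45 (0.750 to 2.95), showed no difference beyond counting error.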

How the data were processed

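CD45-positive cells were profiled with 10x Genomics droplet libraries, 1 per group. The deposited values are raw UMI counts per gene and barcode, which the authors made with Cell Ranger 6.0.2 (tumor) and 3.1.0 (bone marrow), per the file headers. Other tools named in the submitters' processing notes, with no role given, are Seurat 4.3.0, R 4.2.1 and Cell Ranger 6.1.2, and the builds are mm10 and GRCm38. Versions and features differ between tissues, so each tissue was analysed alone.

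Barcodes under 200 genes or over 10% mitochondrial UMIs were left out. Doublets were removed with scrublet in scanpy 1.11.5 at its automatic threshold in KO tumor (8.37% of barcodes) and WT bone marrow (5.37%). In WT tumor and KO bone marrow that threshold marked 0.0333% and 0%, which was taken as not having worked, and the top-scoring barcodes were removed at the expected rate (9.74% and 8.93%). Cells were clustered by tissue on 2000 variable genes without the 5 members, S100a8, S100a9, and sex-linked, mitochondrial, ribosomal, hemoglobin and receptor variable genes, with 30 components, 15 neighbors and Leiden resolution 1. T and NK clusters were clustered again by themselves (names with L). Clusters were named from marker lists and the names are a reconstruction. A cluster with no clear list stayed unnamed or mixed.

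Raw counts were summed per library and class and divided by the total of the class (CPM). Classes with at least 50 cells in each library and genes with at least 50 UMIs in both together were compared. Sums carry exact Poisson intervals, ratios exact conditional intervals and shares exact Clopper-Pearson intervals, at 95%. With 1 library per group no p-value was computed. Shares of cells with a UMI were also taken with each cell thinned to 2000 UMIs, leaving shallower cells out (in the class compared most, 133 KO and 150 WT monocyte- or macrophage-like cells). The ratio and its interval were tested on simulated data. The members, the pathway lists and the marker lists were chosen with earlier results of these data known. Named genes are the members, the 3 genes most like each, and up to 4 per list with most UMIs or the largest ratio, and single clusters, Ifngr2, Itga4, Tbx21 and Dpp4 were named after their values were seen. Some genes of the pathway lists enter the counts but are not reported here by name.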

Additional observations from a re-analysis of the deposited data

Results flagged for a closer look

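In the whole libraries, Cxcl9 and Cxcr6 had opposite KO over WT directions in the 2 tissues. Cxcl9 had a ratio of 0.521 in the whole tumor libraries and of 2.35 (1.22 to 4.90) in the whole bone marrow libraries, where it rests on 43 KO and 12 WT UMIs. Cxcr6 had a ratio of 0.361 in tumor and of 1.30 (1.04 to 1.62) in bone marrow. With shares held at those of WT, the tumor ratio of Cxcr6 was 0.870 by class and 0.788 by cluster. The difference between the tissues was not tested, since each group is 1 library.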

How the results depend on the processing

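No paired analysis was possible because each group is 1 library and the ratios come from no test. With 1 library per group nothing could be left out, and intervals cover counting error only. Depth limits the bone marrow ligands, with at most 88 UMIs each. Over 25 main results, 95 alternative values lay within the counting interval (for shares of genes, within 1.5 times) and 40 outside it. The main ratios past 1.5-fold kept their direction in every alternative run. Some near 1 did not, namely Cxcr6 in CD4 T-like cells (1.01 with the reduced total below, and gated), Cxcl10 in gated monocyte- or macrophage-like cells (0.981), and, in bone marrow, Cxcl16 thinned (0.869) and Cxcr3 thinned (1.07) or at 5% mitochondrial UMIs (1.005). For the whole tumor libraries, a total without S100a8, S100a9, mitochondrial, ribosomal protein and hemoglobin genes gave 0.491 (Cxcl9), 1.41 (Cxcl10), 1.05 (Cxcl16) and 0.340 (Cxcr6). The mean over cells gave 0.561, 1.64, 1.23 and 0.387 for those genes. Thinned cells gave 1.61 (Cxcl10), 1.30 (Cxcl16), 0.260 (Cxcr3) and 0.391 (Cxcr6). Doublets kept gave 0.567 (Cxcl9) and 0.382 (Cxcr6). Chosen after seeing the data, leaving out clusters 4 and L1 gave 0.483 (Cxcl9), 1.45 (Cxcl10), 1.08 (Cxcl16) and 0.347 (Cxcr6), and leaving out cluster 21 gave 0.641 (Cxcl9) and 1.21 (Cxcl16). In monocyte- or macrophage-like cells Cxcl9 was 0.429 with doublets kept, 0.397 thinned and 0.411 without clusters 4 and L1. Cxcl10 there was 1.06 as a mean over cells, 1.09 with doublets kept and 1.26 without those clusters. Cxcl16 there was 1.26 thinned, 1.06 gated on marker UMIs and 1.02 without those clusters. Gated CD4 T-like cells gave 0.665 (Cxcr3) and 1.06 (Cxcr6). In bone marrow Cxcl9 was 5.94 as a mean over cells and 5.80 thinned. With at least 200 UMIs per gene, the share of genes past 1.5-fold was 11.4% (cDC2-like), 12.0% (migratory DC-like), 10.9% (CD4), 6.84% (CD8), 6.104% (regulatory), 10.4% (gamma-delta) and 9.39% (NK-like). For 21 ratios in other classes, 163 alternative values lay within the interval and the others outside it. Within or outside it, the values on the other side of 1 were Cxcl9 (1.49) and Cxcl10 (1.405) in migratory DC-like cells and Cxcl9 in neutrophil-like cells (0.845), all with doublets kept, Cxcl10 in gated CD4 T-like cells (1.53), Cxcl9 in cDC2-like cells (0.936 at resolution 1.6 and 0.926 gated), Cxcr3 in thinned regulatory T-like cells (1.18), Cxcl16 in migratory DC-like cells (0.985 thinned and 0.964 gated) and Cxcr6 in CD8 T-like cells with doublets kept (0.983). The cause was not tested.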
